A study of Mus musculus with 8 samples.

Results

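Marker genes of macrophages and of leukocytes in general were followed in mouse gastrocnemius, a calf muscle, in 5 control and 3 septic samples. The 46 genes were taken by symbol from the deposited count table, where each matched 1 of 25655 rows. They were sorted by textbook role into 14 pan-leukocyte genes, 16 genes of macrophages in general, 7 genes typical of tissue-resident macrophages and 9 genes tied to recruited or inflammatory macrophages. Every sample came from wild-type (WT) male mice at day 4. Controls received 10% glycerol, and the septic samples received cecal slurry, a suspension of gut contents that causes infection with many bacterial species. The labels give neither strain nor age. Nor do they state whether each library is a different animal, so p-values speak only to the spread among these samples, which may be technical.

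Macrophages are phagocytes that live in most tissues and are also replenished from blood monocytes, and in muscle the resident ones lie in the connective tissue around fibres and vessels. Resident cells of this kind are known for scavenger receptors such as CD163 and CD206, whereas recruited cells are known for chemokine receptors such as CCR2 and for genes of lipid handling and lysosomal stress. Both kinds depend on the growth factor receptor CSF1R and the transcription factor PU.1. Pan-leukocyte genes are shared with neutrophils and lymphocytes, so they do not name a cell type.

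Muscle markers were abundant in every library, with the 10 listed fibre genes taking 19.3% ± 1.03 of all counts in the 5 controls (mean ± SD) and 13.3% ± 0.786 in the 3 septic libraries. Mitochondrial transcripts took 23.6% ± 1.89 and 14.5% ± 2.19. Both shares differed between the groups in a two-sided exact permutation test (p = 0.0179, the smallest that 56 splits allow; Benjamini-Hochberg adjusted p = 0.0268 over 3 measures). Total counts ran from 3086277 to 4016329, with p = 0.964 in the same exact test. Levels are given as CPM, the usual depth-scaled count, with library sizes corrected for composition by TMM (trimmed mean of M values). At this depth 1 read was worth 0.312 CPM in an average control and 0.233 in an average septic library, so many of these markers rest on few reads. In whole muscle, more cells of a type and more RNA per cell cannot be told apart, which holds for every result here.

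Of the 46 markers, 32 had enough reads to be tested, and 21 of them rose in septic muscle. The other 11 did not pass, and 0 fell. Calls are from edgeR's quasi-likelihood F test, with p adjusted by Benjamini-Hochberg over 9810 genes and a threshold of 0.05. No marker was lower at an unadjusted p under 0.05 either, and DESeq2 called 0 lower. A large part of the muscle transcriptome differed between the groups: 25.2% of all tested genes were called higher and 25.2% lower, and the median log2 fold change was 0.01 over all of them and 1.5 over the 32 markers. Among the 32, 12 met the minimum count in fewer than 3 controls, so that they needed septic libraries to pass the filter and had to lean towards sepsis. They were Ptprc, Spi1, Cd52, Cybb, Itgb2, Itgam, Hcls1, Fermt3, Cd68, Tyrobp, Ms4a6d and C3ar1. With no expression filter all 46 could be fitted, and 23 were higher and 0 lower, against 16.5% of 16368 genes called higher. Those 23 held 17 of the 21. Cybb, C1qa, C1qc and Pf4 lost their call in that fit, at edgeR adjusted p from 0.0505 to 0.105.

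By role, 9 of 12 tested pan-leukocyte genes rose (median log2 fold change 1.43), 8 of 10 genes of macrophages in general (1.63), 3 of 6 resident genes (1.14) and 1 of 4 inflammatory genes (1.33). Over all tested genes 25.2% were called higher, and the inflammatory count of 1 of 4 lies near that share. Whether the shares of the 4 groups differ from one another was not tested. Ptprc, Spi1, Cd52, Cybb, Itgb2, Itgam, Hcls1 and Fermt3 among pan-leukocyte genes passed the filter through sepsis. So did Cd68, Tyrobp and Ms4a6d among macrophage genes in general and C3ar1 among inflammatory genes. The shares and medians of those groups therefore lean towards sepsis. Of the other tested pan-leukocyte genes, Arhgdib and Cyba rose, and Laptm5 and Lcp1 were not called. In a cruder reading that needs no model, every septic library lay above every control for 15 of the 32 tested markers, and for 16 of all 46 with Adgre1, and below for 0. The septic libraries lay above all controls in 23.1% of all tested genes. Mean CPM was higher in sepsis for 42 of the 46, and Ms4a7, Folr2, Spp1 and Ccr2 were the exceptions.

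Summed over all 46 markers, control libraries 1 to 5 held 427, 203, 194, 171 and 188 CPM and septic libraries 1 to 3 held 559, 1062 and 570 CPM. Control 1 stood above the other controls and sepsis 2 above the other septic libraries, yet the groups did not overlap. The genes of macrophages in general went from 114 ± 52.1 to 399 ± 129 CPM and the pan-leukocyte genes from 38.4 ± 21.7 to 112 ± 38.6 CPM, again with no overlap. For resident genes the sums were 61.2 ± 17.5 and 144 ± 77.8 CPM and for inflammatory genes 22.9 ± 16.6 and 74.7 ± 44.2 CPM. In both of these the groups overlapped, because control 1, at 91.6 and 52.5 CPM, exceeded the lowest septic library, at 85.2 and 48.4 CPM. A sum follows its best-counted members, so Cd68 and Lyz2 weigh most in the genes of macrophages in general. In that group control 1 summed to 207 CPM, 7.77 of it Cd68, and sepsis 3 to 337 CPM, 150 of it Cd68. The lack of overlap there rested on Cd68. Without Cd68 the other 45 markers summed to 419 CPM in control 1 and 420 CPM in sepsis 3, so the groups barely separated.

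**Figure D1:**
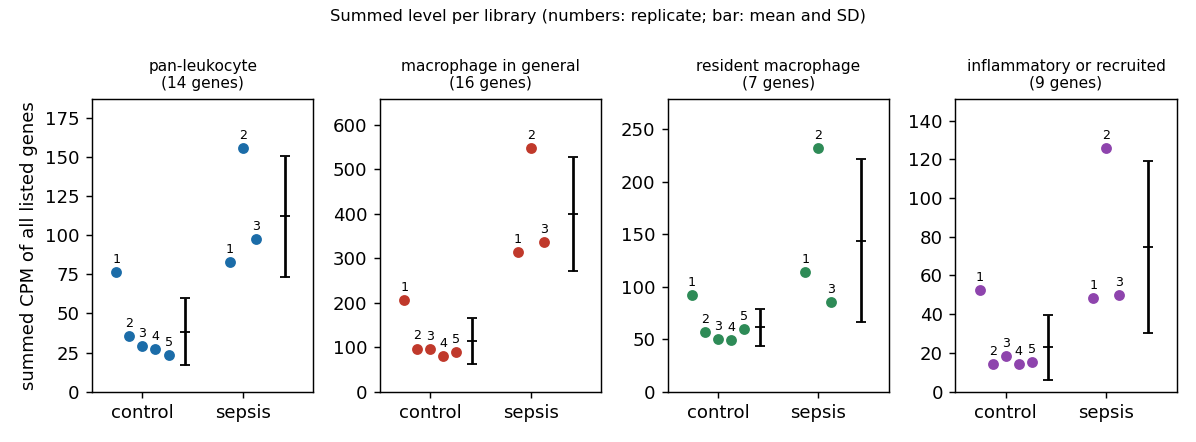
Summed CPM of all listed genes of each group (vertical axis, from 0) in the 5 control and 3 septic libraries. Points are libraries numbered by replicate and the bars beside them give the mean and SD; control 1 and sepsis 2 are the highest of their groups in all 4 panels.

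Control 1 and sepsis 2 were the highest libraries of their groups for most markers. Control 1 was the highest control for 38 of the 46 and sepsis 2 the highest septic library for 38, with both at once for 32. Over all tested genes these shares were 23.5%, 31.8% and 9.22%. The markers thus moved together between libraries within a group as well as between the groups. Without control 1, 28 markers rose, and without sepsis 2, 14 rose, with medians of 1.99 and 1.09, where 24% and 25.5% of all tested genes were called higher. Leaving out both, a choice made after their values were seen, gave 25 markers higher at a median of 1.53, against 24.8% of all tested genes called higher in that fit. All 21 markers of the fit with every library were among those 25.

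**Figure D2:**
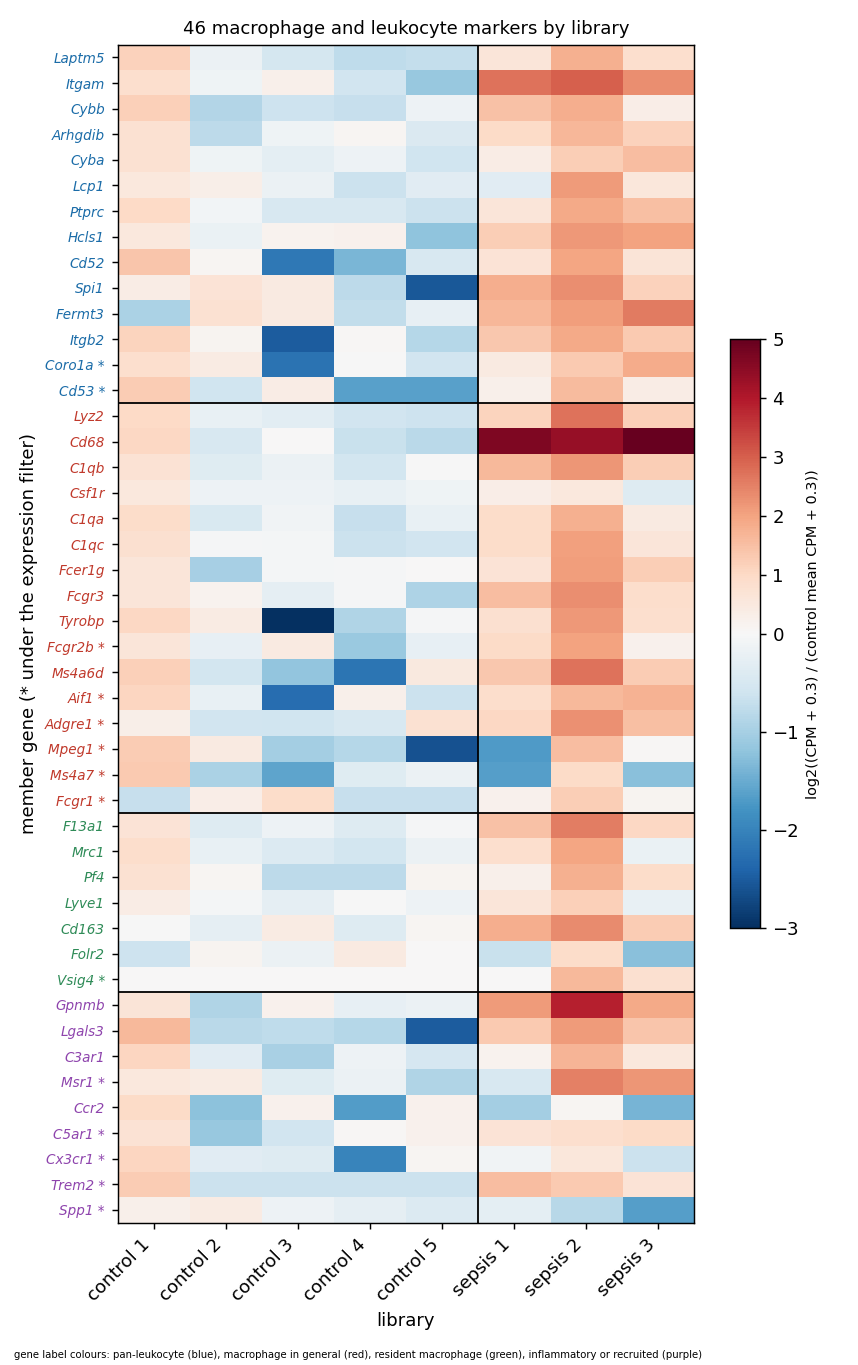
Level of each of the 46 markers (rows, by role) in each library (columns) as log2 of CPM plus 0.3 over the control mean plus 0.3; red is above and blue below the control mean, and an asterisk marks the 14 genes under the expression filter. The control 1 and sepsis 2 columns are redder than their neighbours, and the Cd68 row is the darkest in sepsis.

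To show the regulatory sequence in front of these genes, the 250 bases before the RefSeq start (GRCm38.p6) are printed for the member with the largest increase past the threshold in each group: the integrin gene Itgam (chr7:128062390-128062639, plus strand), the lysosomal gene Cd68 (chr11:69666171-69666420, minus strand), the scavenger receptor gene Cd163 (chr6:124304401-124304650, plus strand) and Gpnmb (chr6:49036268-49036517, plus strand). Each reads 5′ to 3′ towards the gene. Capitals mark the PU box GAGGAA, the core motif of PU.1, on either strand (TTCCTC when it lies on the other strand).
Itgam: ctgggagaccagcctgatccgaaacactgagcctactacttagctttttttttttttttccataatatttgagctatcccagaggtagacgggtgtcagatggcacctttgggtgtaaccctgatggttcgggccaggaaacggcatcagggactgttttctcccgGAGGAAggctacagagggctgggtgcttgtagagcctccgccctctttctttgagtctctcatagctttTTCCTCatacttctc
Cd68: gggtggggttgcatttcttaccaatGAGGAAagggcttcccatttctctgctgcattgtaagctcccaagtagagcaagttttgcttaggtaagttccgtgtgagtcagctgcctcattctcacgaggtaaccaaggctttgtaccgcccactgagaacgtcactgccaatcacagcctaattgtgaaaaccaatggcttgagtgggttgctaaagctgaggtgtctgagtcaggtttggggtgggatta
Cd163: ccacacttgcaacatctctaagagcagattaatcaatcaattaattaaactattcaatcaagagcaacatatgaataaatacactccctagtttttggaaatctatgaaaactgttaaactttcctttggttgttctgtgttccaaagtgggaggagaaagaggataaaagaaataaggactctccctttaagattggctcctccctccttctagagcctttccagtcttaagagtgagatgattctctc
Gpnmb: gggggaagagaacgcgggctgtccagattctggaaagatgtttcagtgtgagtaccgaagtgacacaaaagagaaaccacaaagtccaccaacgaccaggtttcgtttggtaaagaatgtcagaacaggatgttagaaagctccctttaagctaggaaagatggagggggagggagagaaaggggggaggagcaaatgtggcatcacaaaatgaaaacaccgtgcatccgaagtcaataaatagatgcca
The Itgam window holds the motif 84 bases before the start and, on the opposite strand, 15 bases before it. In Cd68 it begins 225 bases before the start, and the windows of Cd163 and Gpnmb do not contain these letters. Of the 46 markers 36 had such a window and 17 held the motif in at least 1. Counted by window, 18 of 46 windows (39.1%) held it, against 23.3% of 32851 windows over all genes of the sequence table. For Gpnmb, unlike the other 3 genes, the bases just after the RefSeq start were not found in the transcripts of a second annotation (GENCODE), so its start is less certain. A match to 6 letters is a description of the sequence and not a binding site.

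Among pan-leukocyte genes the largest increase was that of Itgam, which encodes CD11b, the alpha chain of a complement receptor. Itgam is expressed by monocytes, macrophages and neutrophils. It stood at 3.33, 1.57, 2.11, 1.08 and 0.637 CPM in controls 1 to 5 and at 13, 15.8 and 9.82 CPM in septic libraries 1 to 3. Every septic library was well above every control. The increase was 7.06-fold (log2 fold change 2.82, SE 0.35, edgeR Benjamini-Hochberg adjusted p = 2.27e-05). Its partner chain Itgb2, or CD18, rose 3.23-fold (log2 fold change 1.69, SE 0.56, adjusted p = 0.0227). That call was lost without control 5 (log2 fold change 1.51, adjusted p = 0.0539) and without sepsis 2 (1.44, adjusted p = 0.0858). Fermt3, which encodes the kindlin that activates such integrins, rose 5.58-fold, from 0.810 ± 0.558 to 4.67 ± 1.62 CPM, and unlike most markers it was low in control 1, at 0.278 CPM.

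Ptprc, which encodes the leukocyte phosphatase CD45, was at 5.55, 2.51, 1.81, 1.81 and 1.59 CPM in controls and at 4.26, 10.7 and 7.99 CPM in sepsis. The groups overlapped, since control 1 exceeded sepsis 1. It rose 2.83-fold (log2 fold change 1.5, SE 0.41, adjusted p = 0.00826). Spi1, the gene of PU.1, gave 7, 8, 7, 2 and 0 reads in controls and 22, 40 and 16 in sepsis, with no overlap in CPM and an increase of 3.96-fold (SE of the log2 fold change 0.52, adjusted p = 0.00680). Hcls1, an actin-binding signalling protein of blood cells, rose 3.99-fold (log2 fold change 2.0, SE 0.37, adjusted p = 0.000538), from 0.637 to 2.78 CPM in controls to 4.79 to 9.24 CPM in sepsis. Arhgdib, a signalling gene of leukocytes, rose 2.53-fold with no overlap between the groups.

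The membrane subunits of the phagocyte NADPH oxidase, encoded by Cybb and Cyba, rose 2.55-fold and 2.24-fold. Cyba ranged from 2.87 to 7.77 CPM in controls and from 5.85 to 13.5 CPM in sepsis, and its call was lost without sepsis 3 (log2 fold change 0.91 instead of 1.16, adjusted p = 0.0541). Cybb passed narrowly, with an adjusted p of 0.0434, and lost its call when control 2, 3, 4 or 5 or sepsis 1 or 2 was left out, at log2 fold changes from 1.0 to 1.31 and adjusted p from 0.0844 to 0.169. Of the pan-leukocyte genes tested, 3 did not pass. Laptm5, a lysosomal membrane protein of leukocytes, had a log2 fold change of 1.17 (adjusted p = 0.0584), and it was at 17.2 CPM in control 1 against 4.34 to 6.59 CPM in the other controls and 11.7 to 26.3 CPM in sepsis. Without control 1 it rose by 1.75 on the log2 scale (adjusted p = 0.000587), and without sepsis 2 its value was 0.73 (adjusted p = 0.243). Cd52, a small surface glycoprotein, had 1.30 (adjusted p = 0.130) and rose by 2.21 without control 1 (adjusted p = 0.00638), with 0.67 without sepsis 2 (adjusted p = 0.474). Lcp1, an actin bundler of leukocytes, had 1.21 (adjusted p = 0.0736) and rose by 1.60 without sepsis 1 (adjusted p = 0.00864), where it was at 3.19 CPM against 6.16 and 18.9 CPM in the other two. Its value was 0.19 without sepsis 2 (adjusted p = 0.713). The tetraspanin gene Cd53 and the actin regulator Coro1a were under the filter, with 11 and 18 control reads and 19 and 42 septic reads.

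Cd68 gave the largest change of all the markers. It encodes macrosialin, a heavily glycosylated protein of the lysosomal membrane that is widely used as a macrophage marker. Control libraries 1 to 5 held 28, 8, 12, 6 and 6 Cd68 reads, and septic libraries 1 to 3 held 375, 377 and 657. In CPM these were 7.77, 2.51, 3.61, 2.17 and 1.91 in controls and 99.7, 79.2 and 150 in sepsis. No septic library came near a control. The increase was 29.3-fold (log2 fold change 4.87, SE 0.36, edgeR Benjamini-Hochberg adjusted p = 2.76e-06), and the log2 fold change lay between 4.56 and 5.58 over 17 other ways of processing or leaving out libraries.

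Over the septic libraries the order of Cd68 was unlike that of most other markers. Sepsis 2, the highest septic library for 38 markers, was the lowest for Cd68, and sepsis 3 was the highest. Cyba, Fermt3, Coro1a, Aif1 and C5ar1 were also highest in sepsis 3. Among controls Cd68 was like most markers, with control 1 highest, at 3.05 times the mean of the other controls. Cd68 made up 1.02% to 1.86% of all marker reads in controls and 17.9%, 7.46% and 26.3% in septic libraries 1 to 3. Per read of Csf1r, another macrophage gene, there were 0.0779 to 0.203 Cd68 reads in controls and 2.98, 2.04 and 7.38 in sepsis. The same order over the septic libraries was seen in Eif4a1, an RNA helicase of translation initiation expressed in all cells, which is the next gene upstream of Cd68 on the same strand in the reference annotation. Eif4a1 was at 30.3 ± 3.87 CPM in controls and at 101, 81.9 and 117 CPM in sepsis, an increase of 3.30-fold (adjusted p = 9.30e-07). Unlike Cd68, it was not raised in control 1, at 0.998 times the mean of the other controls. Per 100 Eif4a1 reads there were 5.94 to 25.7 Cd68 reads in controls and 98.9, 96.7 and 129 in sepsis. The annotated gene bodies of the pair do not overlap. Mpdu1, the next gene downstream on that strand, was not called, at 1.23-fold. The part of Eif4a1 in the reads counted for Cd68 was not tested. Without Cd68 the other 45 markers summed to 233 ± 105 CPM in controls and 621 ± 314 CPM in sepsis, a ratio of 2.66, or 2.36 without control 1 and sepsis 2.

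**Figure D3:**
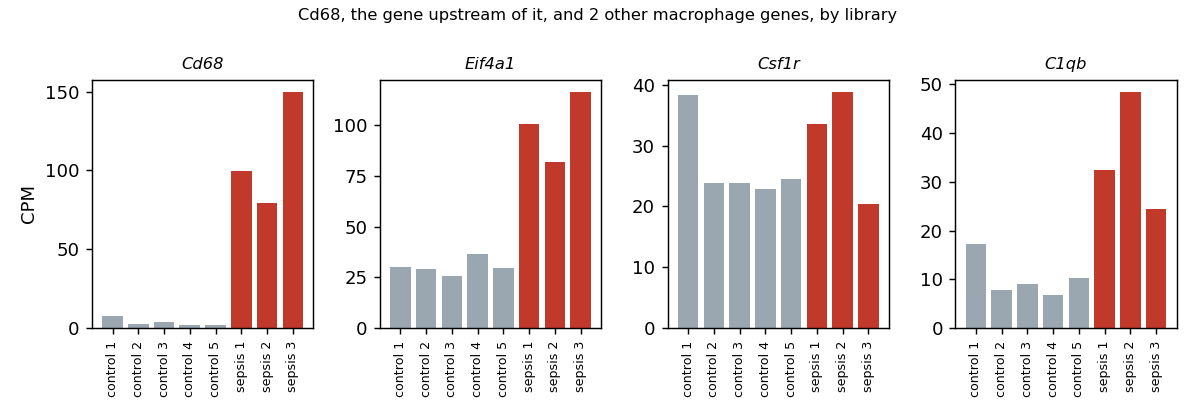
CPM (vertical axes, each from 0) of Cd68, its upstream neighbour Eif4a1 and the macrophage genes Csf1r and C1qb, 1 bar per library, with controls grey and septic libraries red. Cd68 and Eif4a1 are highest in sepsis 3 and lowest of the septic libraries in sepsis 2, whereas Csf1r and C1qb are highest in sepsis 2.

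Csf1r, the receptor through which macrophages receive their survival signal, was at 38.3, 23.9, 23.8, 22.8 and 24.5 CPM in controls and at 33.5, 38.9 and 20.3 CPM in sepsis. The groups overlapped fully, with sepsis 3 below every control. Its log2 fold change was 0.21 (SE 0.23, adjusted p = 0.467), and it was called only with library totals alone, at 0.64. With 63 to 185 reads per library, it was among the better counted markers.

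All 3 chains of the complement recognition protein C1q, a product that tissue macrophages make in quantity, rose. C1qb was at 17.2, 7.85, 9.03, 6.87 and 10.2 CPM in controls and at 32.4, 48.5 and 24.4 CPM in sepsis, with no overlap and an increase of 3.39-fold (log2 fold change 1.76, SE 0.29, adjusted p = 0.000336). C1qc rose 2.54-fold (adjusted p = 0.0179) and C1qa 2.23-fold (adjusted p = 0.0325), with control 1 inside the septic range for both. The call of C1qc was lost without sepsis 2 (log2 fold change 0.76 instead of 1.34, adjusted p = 0.0772). The call of C1qa was lost without control 2, 3, 4 or 5 or sepsis 1 or 2, at log2 fold changes between 0.68 and 1.27 and adjusted p from 0.0536 to 0.154.

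Lyz2, the lysozyme of macrophages and neutrophils, was at 63.8, 27.0, 25.3, 21.0 and 20.4 CPM in controls and at 67.8, 206 and 71.9 CPM in sepsis. Sepsis 2 stood apart from the other septic libraries, and control 1 lay just under sepsis 1. The increase was 3.63-fold (log2 fold change 1.86, SE 0.52, adjusted p = 0.0196), and without sepsis 2 it was 1.13 on the log2 scale (adjusted p = 0.0612). Lyz1, a near-identical copy, had 28 control reads and 67 septic reads, so how reads were split between the pair is uncertain.

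Receptors for antibody and their adaptors followed. Fcgr3, an activating immunoglobulin receptor, rose 3.39-fold, from 1.59 to 5.27 CPM in controls to 6.39 to 17.6 CPM in sepsis (log2 fold change 1.76, SE 0.37, adjusted p = 0.00156). Fcer1g, the signalling chain of such receptors, rose 2.83-fold from 4.06 ± 1.59 to 11.5 ± 5.89 CPM, also with no overlap (adjusted p = 0.00409). Tyrobp, the adaptor of TREM2 and other receptors, had a log2 fold change of 1.51 (adjusted p = 0.0738) and rose by 2.04 without control 1 (adjusted p = 0.0262), with 0.86 without sepsis 2 (adjusted p = 0.323). Ms4a6d, a membrane protein of myeloid cells, rose 4.40-fold but on 18 control reads, and its call was lost without sepsis 2 (log2 fold change 1.44 instead of 2.14, adjusted p = 0.108).

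In the group of macrophages in general, 6 genes were under the filter. Adgre1, which encodes the classical macrophage antigen F4/80, gave 3, 1, 1, 1 and 4 reads in controls and 6, 20 and 10 in sepsis, with no overlap in CPM, and Aif1, the gene of IBA1, gave 19 control reads and 49 septic reads. In the fit with no expression filter both were called higher, with log2 fold changes of 2.10 (adjusted p = 0.00510) and 1.67 (adjusted p = 0.0155). That fit also called the inhibitory receptor gene Fcgr2b (32 and 66 reads) and Coro1a among the pan-leukocyte genes. Mpeg1, a pore-forming protein of phagocytes, had 26 and 32 reads, and Ms4a7 had 25 and 18. Neither was called, and for Ms4a7 15 of the 25 control reads were in control 1 and 15 of the 18 septic reads in sepsis 2. Fcgr1, the high-affinity receptor, had 3 control reads and 6 septic reads, or 2.48 times as many per scaled library size (95% counting interval 0.530 to 15.3).

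In the resident group Cd163, the receptor that clears haemoglobin bound to haptoglobin, was at 5.27, 4.39, 7.23, 3.98 and 5.74 CPM in controls and at 19.7, 29.0 and 13.2 CPM in sepsis. Control 1 was no higher than its peers here and no septic library reached down to the controls. The increase was 3.85-fold (log2 fold change 1.94, SE 0.27, edgeR Benjamini-Hochberg adjusted p = 5.73e-05). F13a1, the coagulation factor XIII subunit of resident macrophages, was at 15.3, 7.22, 8.43, 7.23 and 9.24 CPM in controls and at 26.9, 56.9 and 19.9 CPM in sepsis, a rise of 3.62-fold with no overlap (SE of the log2 fold change 0.36, adjusted p = 0.00145).

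Other resident genes moved less or only in part of the libraries. Mrc1, the mannose receptor CD206, was at 26.4, 12.2, 10.8, 9.76 and 12.7 CPM in controls and at 26.1, 57.6 and 12.6 CPM in sepsis. Sepsis 3 sat at the level of controls 2 to 5 and control 1 at that of sepsis 1, and the log2 fold change of 1.15 (SE 0.50) did not pass (adjusted p = 0.0890). It passed without control 1 (1.49, adjusted p = 0.0265) and without sepsis 3 (1.53, adjusted p = 0.0190), and its value was 0.40 without sepsis 2 (adjusted p = 0.451). Pf4, a chemokine of platelets and of resident macrophages, rose 2.19-fold with an adjusted p of 0.0438, which was lost without control 2, 3, 4 or 5 or sepsis 2 or 3, at log2 fold changes from 0.62 to 1.23 and adjusted p from 0.0664 to 0.206.

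Lyve1, a hyaluronan receptor of lymphatic vessels and of perivascular macrophages, was at 21.4, 15.7, 13.6, 16.3 and 14.7 CPM in controls and at 25.0, 37.8 and 13.9 CPM in sepsis. Its log2 fold change was 0.65 (SE 0.27, adjusted p = 0.0647), and it passed without control 1 (0.77, adjusted p = 0.0419) and without sepsis 3 (0.95, adjusted p = 0.00162). Without sepsis 2 its value was 0.24 (adjusted p = 0.438). The fit with no expression filter called it too (adjusted p = 0.0455). Of 6 lymphatic vessel genes listed, 3 were tested and 1, the chemokine gene Ccl21a, fell by 2.12 on the log2 scale, with the list summing to 15.3 to 36.6 CPM in controls and 7.71 to 19.3 CPM in sepsis. Folr2, the folate receptor of resident macrophages, was at 3.13 ± 0.888 CPM in controls and at 1.86, 6.09 and 1.14 CPM in sepsis, so sepsis 2 alone exceeded the controls. Its log2 fold change of 0.01 (SE 0.47) became -1.04 without sepsis 2 (adjusted p = 0.0865), -0.13 without control 1 and -0.04 without control 3. Vsig4, a complement receptor, had no read in controls and 0, 3 and 1 in sepsis, a level at least 1.66-fold higher against a floor of 3 reads over the control group.

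**Figure D4:**
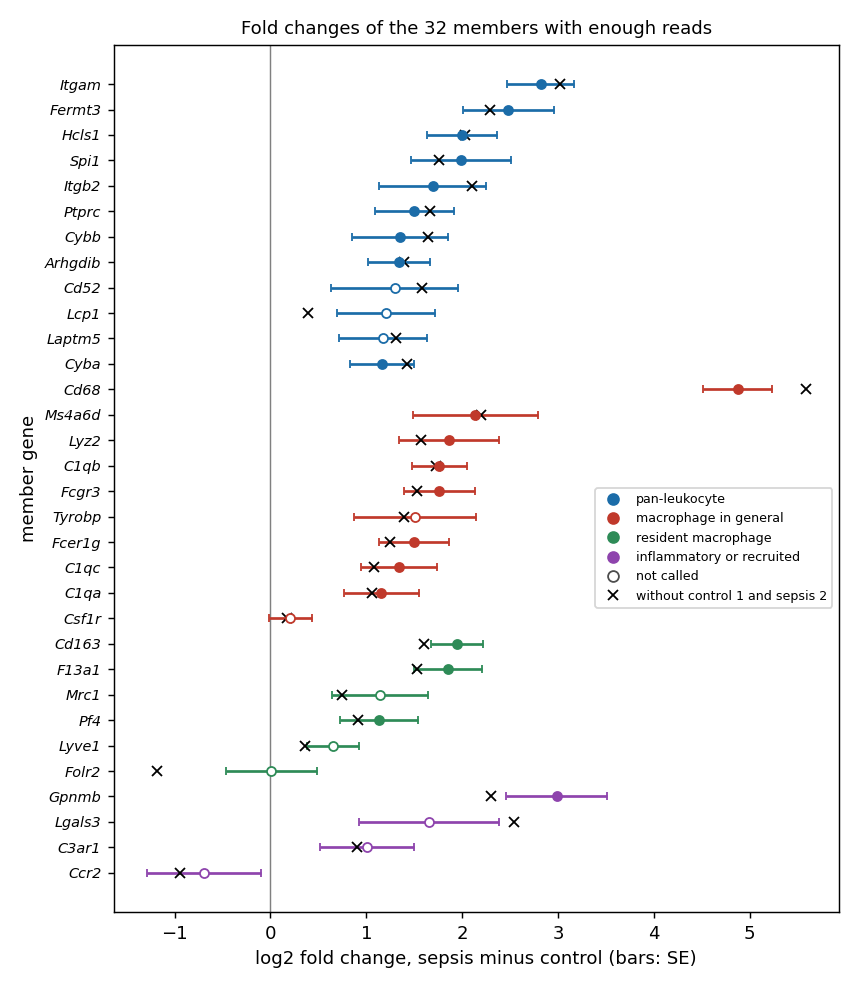
Log2 fold change of the 32 tested markers (horizontal axis, sepsis minus control) with its SE as a bar, coloured by role; filled points passed the threshold and open points did not, and crosses give the value without control 1 and sepsis 2. Cd68 lies furthest right at 4.87, Csf1r and Folr2 lie near 0, and Ccr2 is the only point below 0 with every library.

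In the inflammatory group Gpnmb, a lysosomal glycoprotein of lipid-laden macrophages, was at 6.94, 2.20, 5.12, 3.62 and 3.82 CPM in controls and at 19.9, 67.9 and 16.9 CPM in sepsis. Each septic library lay above each control, and sepsis 2 lay far above the other two. It rose 7.93-fold (log2 fold change 2.99, SE 0.53, adjusted p = 0.00139), and by 2.30 without control 1 and sepsis 2 (adjusted p = 5.43e-05). Lgals3, which encodes galectin-3, was at 21.9, 3.77, 3.92, 3.62 and 0.956 CPM in controls and at 17.6, 30.9 and 18.5 CPM in sepsis. Control 1 was within the septic range, and the other controls were far below it. With all libraries Lgals3 did not pass (log2 fold change 1.66, SE 0.73, adjusted p = 0.0959), and without control 1 it rose by 2.86 (adjusted p = 4.60e-05). Without sepsis 2 its value was 1.34 (adjusted p = 0.244).

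Ccr2, the receptor that draws inflammatory monocytes out of the blood, was at 8.33, 1.57, 4.82, 1.08 and 4.78 CPM in controls and at 1.86, 4.41 and 1.37 CPM in sepsis. All septic values lay within the control range, and the log2 fold change was -0.69 (SE 0.60, adjusted p = 0.356). It was the only tested marker below 0 with every library, and its call was the same in all 17 alternatives. C3ar1, a receptor for a complement fragment, had a log2 fold change of 1.01 (adjusted p = 0.108) and rose by 1.56 without control 1 (adjusted p = 0.0109), with 0.36 without sepsis 2 (adjusted p = 0.579). Among members under the filter, the scavenger receptor gene Msr1 gave 5, 4, 2, 2 and 1 reads in controls and 2, 30 and 22 in sepsis, with sepsis 1 at the level of the controls. It was called higher in the fit with no expression filter (log2 fold change 2.19, adjusted p = 0.00402).

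The remaining inflammatory genes had few reads. Trem2, a lipid receptor of microglia and recruited macrophages, had 3 control reads, all in control 1, and 4, 4 and 2 in sepsis, or 4.14 times as many (95% counting interval 1.07 to 23.4). Spp1, or osteopontin, had 22 control reads and 8 septic reads, a ratio of 0.451 (0.174 to 1.05). The fractalkine receptor gene Cx3cr1 had 15 and 12 reads, and the complement receptor gene C5ar1 17 and 27. None of these was called in the fit with no expression filter. These intervals and the floor cover counting error alone, because without molecular identifiers several reads can stem from the same molecule.

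Some of the markers are shared with other cells, so markers of those cells were read in the same libraries. Of 15 neutrophil genes listed, 5 were tested and all of them were called higher, where 25.2% of all tested genes were. Each of them met the minimum count in fewer than 3 controls, so they passed the filter through sepsis and had to lean that way. The list summed to 0.903 to 4.46 CPM in controls and to 121, 175 and 305 CPM in septic libraries 1 to 3. S100a8 had 3 control reads and 821 septic reads, 340 times as many (95% counting interval 116 to 1651). S100a9 had 2 and 512 reads, 318 times as many (87.5 to 2631), and Ngp, a granule protein gene, had 0 and 71, at least 29.4-fold higher. The late-stage surface marker gene Ly6g had 0 and 2 reads, and the early granule genes Mpo and Elane had 0 in every library. Itgam, Itgb2, Lyz2, Cybb, Cyba, Fcer1g, Fcgr3 and Ptprc are also expressed by neutrophils, and the part of those cells in their increase was not tested. Sepsis 3 was highest for the neutrophil sum, while sepsis 2 was highest for most macrophage and leukocyte markers.

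Lymphocyte genes were near the limit of detection. Of 17 genes of T and natural killer cells and 11 of B and plasma cells none passed the filter. The T and natural killer genes summed to 1.59 to 3.33 CPM in controls and 2.93 to 13.7 CPM in sepsis, with Cd4, Trac, Trbc1 and Trbc2 at 0 in all libraries. Of the septic reads many were from Gzma, a granule protease gene, with 1 control read and 3, 23 and 7 septic reads (41.0 times as many, 95% counting interval 6.86 to 1666), and from Cd247, a receptor signalling chain, with 14 and 50 reads. Without the expression filter both were called higher (adjusted p = 9.79e-05 and 0.0405). The B cell genes summed to 0.278 to 2.11 CPM in controls and 0.457 to 0.840 CPM in sepsis, with Cd79a, Ighm, Ighd and Igkc among those at 0 in all. Of 10 dendritic cell genes 2 were tested, and Fscn1 rose (adjusted p = 0.0269) while Zbtb46 was not called, the sums being 16.9 to 23.5 and 18.9 to 44.5 CPM. Only 3 of the 10 had a higher mean in sepsis. Reads of Flt3 went from 3 to 0, of Cd209a from 8 to 0, of Siglech from 7 to 0, of Xcr1 from 6 to 2, of Batf3 from 6 to 2 and of Itgax from 9 to 5, and without the expression filter Cd209a was called lower (adjusted p = 0.0490). These lymphocyte and dendritic cell genes were named after their values were seen. Of 8 mast cell genes 1, the tryptase gene Tpsb2, was tested and fell by 2.20 on the log2 scale, the sums being 7.22 to 12.7 and 3.99 to 8.40 CPM. Platelet genes, which bear on Pf4, summed to 1.81 to 9.99 CPM in controls and 1.06 to 4.62 in sepsis, with 1 of 8 tested and not called. Red cell genes, a sign of blood left in the tissue, summed to 44.0 to 954 CPM in controls and 14.3 to 89.6 in sepsis, and of 4 tested 1 fell. Beside all these counts, 25.2% of all tested genes were called higher and 25.2% lower, and 1 of 4 lies near that share.

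Genes that recruit or feed macrophages were read as a list of 14, of which 8 were tested, 5 rose and 0 fell, where 25.2% of all tested genes were higher and 25.2% lower. Icam1, Cx3cl1 and Vcam1 met the minimum count in fewer than 3 controls and passed the filter through sepsis. The adhesion molecule gene Icam1 gave 3, 0, 5, 3 and 2 reads in controls and 62, 67 and 166 in sepsis, an increase of 27.0-fold (log2 fold change 4.76, SE 0.50, adjusted p = 1.56e-05). Cx3cl1, the ligand of CX3CR1, rose 11.6-fold (adjusted p = 0.000120) and the adhesion molecule gene Vcam1 9.50-fold (adjusted p = 0.00145). Csf1, the ligand of CSF1R, was at 8.48 ± 1.99 CPM in controls and at 7.98, 14.1 and 32.2 CPM in sepsis, and it rose 2.13-fold (adjusted p = 0.0369) with sepsis 1 inside the control range. Ccl2, the ligand of CCR2, had 6 control reads and 0, 32 and 44 in sepsis, too few to pass the filter. Csf1 and Ccl2 were added outside the naming rule because their receptors are markers.

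Of 18 genes of phagocyte signalling 4 were tested and 3 rose, with Plek, a substrate of protein kinase C, up 3.63-fold, the oxidase subunit gene Ncf1 2.61-fold and the kinase gene Lyn 1.78-fold. Plek and Ncf1 passed the filter through sepsis. Of 40 further macrophage genes 15 were tested, 10 rose and 2 fell, with Clec4a1, Clec4a2, Ccl9 and Wfdc17 passing through sepsis. The same shares of 25.2% over all tested genes stand beside these counts. Wfdc17 rose 11.0-fold (adjusted p = 0.000689), the chemokine gene Ccl6 4.26-fold (adjusted p = 0.00120) and Mertk, a receptor for the uptake of dying cells, 2.38-fold (adjusted p = 0.00118). The genes that fell, named after their values were seen, were the transcription factor gene Maf, by 1.93 on the log2 scale, and the protease gene Ctsc, by 1.14. Maf stood at 735 ± 82.6 CPM in controls, above all 46 markers summed, at 171 to 427 CPM in those libraries. The part of other cell types in its decrease was not tested. Of 18 macrophage activation genes 4 were tested, 2 rose and 2 fell, with Slpi and Tlr4 passing the filter through sepsis. Slpi, a protease inhibitor of inflamed tissue, had 3 control reads and 183 septic reads, 75.7 times as many (25.5 to 371), and the endotoxin receptor gene Tlr4 rose 3.37-fold (adjusted p = 0.00682). Retnla and Mgl2, genes of alternatively activated macrophages, fell by 3.07 and 1.59 on the log2 scale (adjusted p = 8.12e-07 and 0.0144), and Retnla went from 25.0 ± 5.54 to 2.93 ± 0.425 CPM. Other genes of alternative activation went the other way. Arg1 had 0 control reads and 28 septic reads (at least 11.6-fold higher), Chil3 had 0 and 17 (at least 7.03-fold higher), and Clec10a rose 3.37-fold (adjusted p = 0.0319). Of the 17 Chil3 reads 12 were in sepsis 3. Clec10a stood at 33.2 CPM in sepsis 2, but at 7.45 and 7.53 CPM in sepsis 1 and 3, against 7.49 CPM in control 1. Its call was lost in the edgeR fit with no expression filter (adjusted p = 0.0908). Mgl2, Arg1, Chil3 and Clec10a were named after their values were seen. Retnla is also known from fat and connective tissue, and 9 of 10 fibroblast genes fell in the same samples; their part in its decrease was not tested.

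Scaling changed how many markers passed. With library totals alone, which shifts the median over all tested genes from 0.01 to 0.43 on the log2 scale, 29 of 32 markers were higher and 0 lower, against 43.4% of all tested genes called higher. The median of the 32 was then 1.94. Of the tested markers, Folr2 changed sign with scaling, from 0.01 to -0.019 with upper-quartile factors, and it was not called in either.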

How the data were processed

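RNA from 8 gastrocnemius samples was read as QuantSeq libraries, which sample the 3′ end of transcripts, made from 25 ng of total RNA per the labels' protocols. The authors deposited raw counts per gene, 1 column per library; the build was GRCm39 per the submitters' processing notes. The aligner, the counting tool and its use of strand are not given in the sources used here, so reads of overlapping or neighbouring genes cannot be told apart with certainty. CPM, fold changes and tests were computed here with edgeR 4.0.16 in R 4.3.3 (minimum count 10, minimum total 15, TMM, robust quasi-likelihood F test over all 8 libraries, no covariate, Benjamini-Hochberg over all tested genes, threshold 0.05). The SE is the log2 fold change over the square root of F. The members, groups and other marker lists were chosen with earlier results of these data known. Every member is accounted for, and other lists name at most 3 tested genes with the smallest p. Besides these are genes said to be added, named after their values were seen or listed for how they passed the filter. Alternatives were other scalings, filters, DESeq2 1.42.0, limma 3.58.1, a replicate block and libraries left out. In 5 simulations of this comparison, each with 200 of 9810 genes changed, edgeR recovered 11.9% of 1.5-fold, 57.3% of 2-fold and 90.9% of 4-fold changes, and 6.17% of calls were false. No pair of libraries agreed within sampling noise (chi-square per degree of freedom 2.04 to 6.86 for pairs of controls, 11.0 to 26.3 for septic pairs), and edgeR fits 1 dispersion per gene to both groups. Promoter sequences come from RefSeq (GRCm38.p6) and the order of neighbouring genes from a GRCm38 annotation.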

Additional observations from a re-analysis of the deposited data

Results flagged for a closer look

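Among the 32 tested markers, 11 had 1 control library far from the other controls, in that its gap to the next value took more than 0.71 of the control range, the 95% limit for 5 samples. In all 11 the library was control 1, and it was high. The genes and their levels in control 1 were Ptprc 5.55, Laptm5 17.2, Cyba 7.77, Cybb 10.3, Csf1r 38.3, Lyz2 63.8, C1qa 25.5, Mrc1 26.4, F13a1 15.3, Lgals3 21.9 and C3ar1 7.22 CPM, against control medians of 1.81, 5.12, 3.98, 2.71, 23.9, 25.3, 11.5, 12.2, 8.43, 3.77 and 2.51 CPM. Chance flags about 1 in 20 groups, and control 1 was high in this way in 1.53% of all tested genes. Control 1 also had the highest share of mitochondrial counts among controls (26.7% against 21.7% to 23.6%), the lowest share of fibre genes (17.5% against 19.3% to 20.2%) and the highest sum of fibroblast genes (3441 against 1981 to 2384 CPM). The part of these in the result was not tested.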

How the results depend on the processing

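Over 17 alternatives the number of markers higher lay between 11 and 29, and 0 were lower in each of them. The block gave the lowest number: with replicate number as a block, 11 markers rose, all among the 21. In that fit 1741 of 9810 tested genes were called higher, against 2475 in the main fit. Library totals alone gave the highest number, 29, with 43.4% of all tested genes called higher. Same-numbered libraries did not deviate together (correlations of -0.12, 0.04 and -0.02). So few correlations show no pairing by number but cannot exclude it, and control 4 and 5 have no partner. Leaving out 1 library gave 14 to 28, with 2194 to 2499 of the 9810 tested genes called higher. Of the 21 markers, 11 kept their call in all 17 alternatives (Spi1, Arhgdib, Itgam, Hcls1, Fermt3, Cd68, Fcgr3, C1qb, Cd163, F13a1 and Gpnmb) and 10 lost it in at least 1. Ptprc and Fcer1g lost it with the block alone. Among the 11 that kept it, Spi1, Itgam, Hcls1, Fermt3 and Cd68 had passed the filter through sepsis and so had to lean that way. Most alternatives used that same filter. Of the 11 not called, 9 gained a call in at least 1 alternative, Ccr2 gained none, and Folr2 changed sign in 7, with a log2 fold change of -0.019 with upper-quartile factors, -0.015 in DESeq2, -0.27 in limma voom and -1.18 without control 1 and sepsis 2 together. Leaving out 1 library moved Folr2 between -1.04 and 0.41, and the cause was not tested. Changed genes numbered 4943 and between 3625 and 5643 in the alternatives. Of simulated 2-fold changes 57.3% were found, so a marker that missed the threshold is not shown to be unchanged. The simulations changed 200 genes drawn from all 9810 tested, where 4943 were called in the data. That rate is therefore not the recovery rate of these markers.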
